A study of Mus musculus with 15 samples.

Results

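Mouse fibroblasts from 2 sources that carry the same label, resistant, were compared with each other: TAF-el4 (3 arrays) against TAF-tib42 (3 arrays), 6 of the 15 arrays of the series, chosen by their titles. The series title concerns fibroblasts of tumours that are refractory to anti-VEGF treatment, so TAF is read here as tumour-associated fibroblast. EL4 is a mouse T-cell lymphoma line, while the meaning of tib42 and of the other source names is not given in the labels. The other 9 arrays come from TAF-tib48, also labelled resistant, and from TAF-tib6 and NSF, both labelled sensitive, with 3 arrays each. The labels give no strain, age, drug treatment, culture passage or cell selection for either source, and do not define a replicate array, which may be a separate culture, a separate animal or a repeat of the same RNA. Every p-value here is set against array-to-array scatter, part or all of which could be technical.

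Fibroblasts are mesenchymal cells that build the extracellular matrix and, in tumours, release chemokines, growth factors and proteases and can take on a contractile, smooth muscle-like state. Vascular endothelial growth factor (VEGF) drives vessel growth, and stromal cells can supply other vessel-promoting factors when VEGF is blocked. Type I interferon signals through transcription factors, STAT2 and IRF9 among them, that bind a DNA element in the promoters of antiviral and antigen presentation genes. Growth factor signalling through the MAP kinase cascade turns on immediate-early genes such as Egr1, and its outcome for the cell cycle is held in check by the CDK inhibitors.

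Each array measured the fibroblast RNA in the Cy5 channel against a commercial universal mouse reference RNA in the Cy3 channel. A level below is the log2 ratio of Cy5 over Cy3, so 0 means the reference's level for that probe, and levels of different genes are not comparable. Differences are TAF-el4 minus TAF-tib42, so a positive one means higher in TAF-el4. Median Cy5 signal on the 6 arrays was between 175 and 244 units, over a median background of 52 to 54 units. Arrays of the same source correlated at 0.976 to 0.988 across genes, and arrays of the 2 sources with each other at 0.858 to 0.878.

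The 2 sources differed widely. Of 31208 genes tested, 7178 (23%) passed the test at an adjusted p under 0.05, with 4163 (13.3%) higher and 3015 (9.66%) lower in TAF-el4. Most called differences were small: 3687 of the called genes were less than 1.2-fold apart, and the median absolute difference of a called gene was 0.26. At least 2-fold apart were 276 called genes (0.884% of those tested), 163 higher (0.522%) and 113 lower (0.362%). The median difference over all genes was 0.01, and the 1st and 99th percentiles were -0.59 and 0.75. By the scanner's own log ratio, which has no added offset, 510 genes were at least 2-fold apart. Higher calls made up 58.0% of all calls, against 68.3% when arrays were centred on their median without the intensity-dependent (loess) correction and 51.5% from Cy5 alone with quantile scaling.

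The TAF-el4 and TAF-tib42 arrays lie on 2 runs of consecutive slide numbers, each with 1 array to a slide. TAF-el4 arrays 1 and 2 share a run with the NSF arrays, while TAF-el4 array 3 shares one with all 3 TAF-tib42 arrays. With the run as a block in the fit, 4424 genes were called. A fit within the shared run alone set the single TAF-el4 array against the 3 TAF-tib42 arrays. The spread there came from the TAF-tib42 arrays only, and the TAF-el4 array was assumed to vary like them. For the 30 named genes at the ends of the range (15 in each direction), both fits gave the same differences. On the TAF-el4 side each rests on array 3 alone, so they are 1 estimate and not 2. All 30 kept their sign, at 0.923 (Egr2) to 1.23 (Isg15) times the difference given below. All 30 were called with the run as a block.

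Folds below are those of a gene's brightest probe, background-corrected with a small constant added to each channel, which pulls dim genes towards 0. With the scanner's own ratio 21 of the 168 called named genes had differences over 1.5 times larger and 2 smaller. Those described below with such a change were Irf7 (-1.53), Cdkn1c (1.35), Serpinb2 (2.13), Kitl (2.21), Wnt2 (2.13), Wnt4 (0.96), Dkk2 (1.61), Hoxa11 (1.54), Hoxc8 (0.75), Pcolce2 (1.14), Lyz1 (1.13), Tyrobp (-0.97), Aif1 (-0.94), Tyr (0.52) and Meox2 (-0.51). The mean over all probes of a gene gave differences over 1.5 times smaller for 22 genes and larger for 1. Of those described below these were Rpl39l (2.45), Maf (1.16), Saa1 (-1.06), Tnc (1.25), Irf9 (-0.65), Efnb2 (0.84), Plau (0.42), Kitl (0.70), Epha4 (0.59), Sox9 (0.72), Higd1a (-0.53), Adamts2 (-0.40), Col2a1 (-0.34), Lyz2 (0.47), Aif1 (-0.30), Pdgfra (-0.15) and Vegfa (-0.08). From the Cy5 channel alone Socs1 (-0.60), Sfrp1 (2.19), Wnt4 (0.73), Meox2 (-2.62), Fn1 (-0.49) and Vegfa (-0.27) were larger and Mela (-0.23) smaller.

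**Figure D1:**
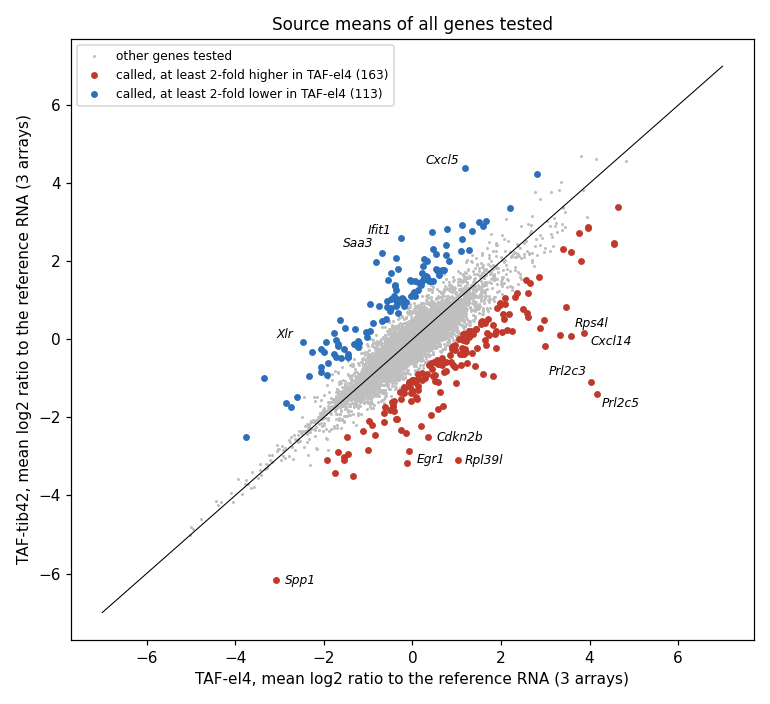
Mean log2 ratio to the reference RNA in TAF-el4 (horizontal axis) and TAF-tib42 (vertical axis), each over 3 arrays, for the 31208 genes tested. The 163 called genes at least 2-fold higher in TAF-el4 lie below the diagonal of equal levels, with Prl2c5 farthest from it, and the 113 lower ones lie above it, with Cxcl5 farthest.

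Interferon-stimulated genes were lower in TAF-el4. Of 50 members tested, 38 were called lower, none higher and 12 were not called, with a median difference of -0.80, beside 0.01 over all genes and 9.66% of all genes called lower. For 21 members the difference was at least 2-fold. With the slide run as a block, where the difference rests on TAF-el4 array 3 alone, 37 were called lower. The mean level of the 50 genes was between -0.39 and -0.11 on the TAF-el4 arrays, against 0.64 to 0.68 on the TAF-tib42 arrays, so the arrays of the 2 sources did not overlap. The TAF-el4 arrays were the more spread of the 2 sources for 34 of the 50 members.

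Promoters of the 4 called interferon-stimulated genes that had the largest differences among those holding the interferon-stimulated response element are shown here because that element is where STAT2 and IRF9 act. Each is the RefSeq sequence of GRCm38.p6, 5′ to 3′ on the gene's strand, 250 bases before to 50 after the annotated start, with matches on either strand in capitals, where a match is GAAA followed after any 2 bases by a further GAAA (overlapping matches run together).
Ifit1 (chr19:34640639-34640938, plus strand): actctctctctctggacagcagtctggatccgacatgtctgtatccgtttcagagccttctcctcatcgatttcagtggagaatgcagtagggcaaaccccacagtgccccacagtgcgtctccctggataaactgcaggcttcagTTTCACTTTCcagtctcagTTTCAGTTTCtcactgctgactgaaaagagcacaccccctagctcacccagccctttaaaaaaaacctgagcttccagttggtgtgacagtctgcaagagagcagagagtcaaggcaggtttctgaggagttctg
Gbp3 (chr3:142559794-142560093, plus strand): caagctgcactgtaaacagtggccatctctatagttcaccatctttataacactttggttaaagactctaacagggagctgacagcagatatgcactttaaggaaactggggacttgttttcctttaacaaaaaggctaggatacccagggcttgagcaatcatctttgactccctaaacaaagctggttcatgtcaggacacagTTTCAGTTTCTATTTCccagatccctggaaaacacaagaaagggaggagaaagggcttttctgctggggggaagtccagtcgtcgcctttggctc
Isg15 (chr4:156200769-156201068, minus strand): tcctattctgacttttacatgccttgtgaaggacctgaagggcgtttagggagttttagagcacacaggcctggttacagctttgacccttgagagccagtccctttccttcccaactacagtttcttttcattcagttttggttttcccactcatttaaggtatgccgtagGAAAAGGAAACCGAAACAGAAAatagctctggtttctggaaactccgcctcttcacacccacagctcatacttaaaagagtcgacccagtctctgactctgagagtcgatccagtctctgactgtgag
Irgm2 (chr11:58214727-58215026, plus strand): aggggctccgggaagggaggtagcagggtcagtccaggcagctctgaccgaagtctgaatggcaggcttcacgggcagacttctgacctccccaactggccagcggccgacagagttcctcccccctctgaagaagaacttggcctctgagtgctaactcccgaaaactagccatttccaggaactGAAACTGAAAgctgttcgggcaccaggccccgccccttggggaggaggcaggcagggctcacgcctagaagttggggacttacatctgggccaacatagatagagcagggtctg
Ifit1 held 2 matches, the first 104 bases before the start, Gbp3 2, Isg15 3 and Irgm2 1. Promoters were found for 39 of the 55 listed genes, and 21 of them (53.8%) held the element, against 1079 of 27025 genes with a promoter in the table (3.99%). Among the called members 16 of 24 held it, and among tested members that were not called 4 of 10 did. A match describes the letters in this window and no binding was measured.

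Ifit1, an antiviral protein that binds viral RNA ends, had levels of 0.24, -0.30 and -0.71 on the TAF-el4 arrays, against 2.69, 2.55 and 2.57 on the TAF-tib42 arrays. The lowest TAF-tib42 array was well above the highest TAF-el4 array, and the difference was -2.86 ± 0.17 (SE, n = 3 each; adjusted p = 4.35e-10 by limma), 7.28-fold lower in TAF-el4. Isg15, the ubiquitin-like modifier, read 0.87, 0.55 and -0.10 on the TAF-el4 arrays, against 2.79, 2.73 and 2.71 on the TAF-tib42 arrays, a difference of -2.30 ± 0.17 (adjusted p = 7.60e-09 by limma). Usp18, the protease that removes it and dampens receptor signalling, read -1.24, -1.67 and -1.97 on the TAF-el4 arrays, against 0.54, 0.45 and 0.51 on the TAF-tib42 arrays, a difference of -2.13 ± 0.13. In both genes the TAF-tib42 arrays lay close together while the TAF-el4 arrays were spread more widely.

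The guanylate-binding protein gene Gbp3 was 5.41-fold lower in TAF-el4 (-2.44 ± 0.16). Oasl2, a relative of the oligoadenylate synthetases, was 4.32-fold lower (-2.11 ± 0.17), with 1 TAF-tib42 spot left out by the scanner's outlier flag. Rtp4, an interferon-induced chaperone of receptors, and Irgm2, an immunity-related GTPase, differed by -2.07 ± 0.16 and -1.83 ± 0.10. The TAF-el4 arrays of these 4 genes did not overlap the TAF-tib42 arrays, which the rule for naming them required. Over all genes 38.4% had arrays that did not overlap.

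Upstream of these targets, 8 of 27 interferon pathway genes were called lower and 5 higher, beside 9.66% and 13.3% of all genes. Their median difference was -0.07. The lower ones included the transcription factors Stat2 (-1.27 ± 0.09) and Irf9 (-1.04 ± 0.08). Stat2 read 0.42, 0.31 and 0.12 on the TAF-el4 arrays, against 1.56, 1.56 and 1.52 on the TAF-tib42 arrays. Irf7, the factor that amplifies interferon production, differed by -0.99 ± 0.07, and Socs1, a feedback inhibitor of the pathway, by -0.39 ± 0.06. These 4 genes are themselves interferon targets, and the pathway list also holds receptors, kinases and sensors, most of which were not called.

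Of the interferon-activated p200 family, DNA-binding proteins of the nucleus and cytoplasm, 6 of 12 listed members were tested and 3 were called, all lower in TAF-el4. Over all genes 9.66% were called lower. Ifi204 had a difference of -0.98 ± 0.08, Ifi203 of -0.95 ± 0.09 and Ifi205 of -0.77 ± 0.08. The other 3 were not called: Ifi209 with -0.19 ± 0.08, Aim2 with 0.04 ± 0.06 and Ifi202b with 0.01 ± 0.09. Ifi202b was called higher, at 0.28, with the slide run as a block, where the difference rests on TAF-el4 array 3 alone. Ifi209 was called lower without background subtraction (-0.18) and without TAF-el4 array 3 (-0.26). Its further probes gave -0.01 and 0.03 and were not called. The members of this family are close copies of each other, so one probe may read more than 1 of them.

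Antigen presentation genes were called lower in TAF-el4 in 18 of 20 tested members, beside 9.66% of all genes. None was called higher, and the median difference was -0.50. All 20 differences were below 0. H2-D1, a classical MHC class I heavy chain, read -1.75, -1.77 and -1.75 on the TAF-el4 arrays, against 0.21, 0.16 and 0.09 on the TAF-tib42 arrays, 3.76-fold lower in TAF-el4, a difference of -1.91 ± 0.06 (SE, n = 3 each; adjusted p = 4.01e-14 by limma). The spread within each source was small beside this gap. The class I genes H2-Q10 (-1.18 ± 0.08), H2-Q7 (-1.08 ± 0.08) and H2-Q1 (-1.03 ± 0.09) and the immunoproteasome subunit Psmb9 (-1.0 ± 0.06) were also lower. Class I genes are near-identical to each other, so one probe may read more than 1 of them. The response element was found in 5 of 19 antigen presentation promoters.

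**Figure D2:**
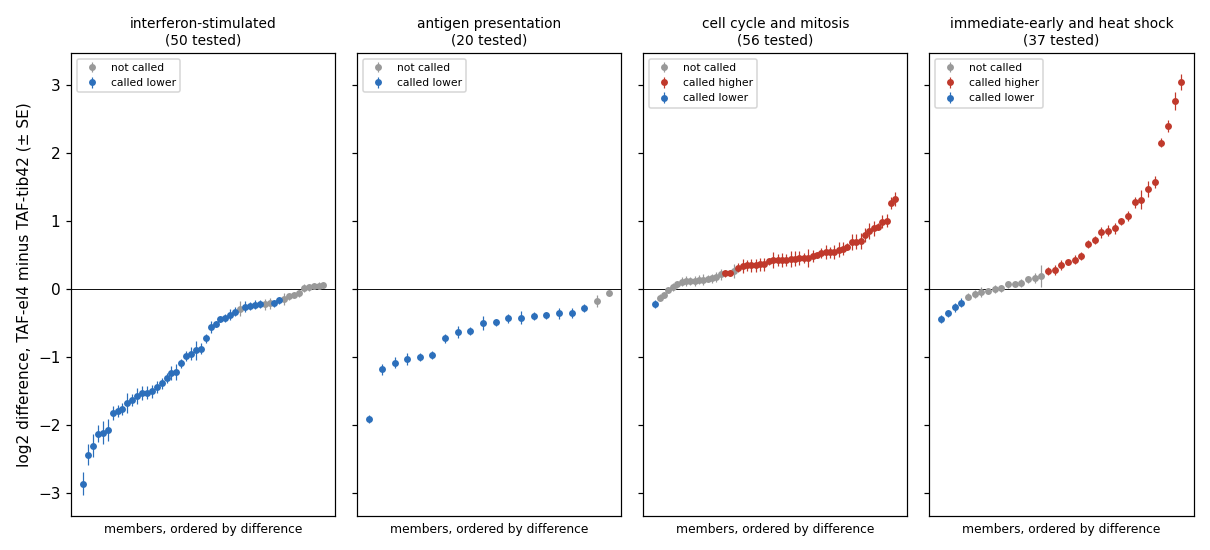
Log2 difference, TAF-el4 minus TAF-tib42, with its standard error, for every tested member of 4 gene lists in order of size. Interferon-stimulated and antigen presentation genes lie below 0 almost throughout (38 of 50 and 18 of 20 called lower), while cell cycle genes (39 of 56) and immediate-early and heat shock genes (21 of 37) were mostly called higher.

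Chemokines split into groups that moved in opposite directions. Of 26 tested, TAF-el4 had 6 called higher and 9 called lower, beside 13.3% and 9.66% of all genes. Cxcl5 and Cxcl1, ligands of CXCR2 that attract neutrophils, were the lowest. Cxcl5 read 1.32, 1.13 and 1.14 on the TAF-el4 arrays, against 4.64, 4.25 and 4.27 on the TAF-tib42 arrays, a difference of -3.19 ± 0.24 (SE, n = 3 each; adjusted p = 9.47e-09 by limma) or 9.13-fold lower. Cxcl1 read -0.79, -0.92 and -0.78 on the TAF-el4 arrays, against 2.15, 2.01 and 1.79 on the TAF-tib42 arrays, 7.03-fold lower. Ccl2, which attracts monocytes, was 3.14-fold lower (-1.65 ± 0.10).

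Going the other way, Cxcl14, a chemokine made by many epithelia and by stroma, read 3.79, 3.89 and 3.94 on the TAF-el4 arrays, against 0.14, 0.14 and 0.18 on the TAF-tib42 arrays, 13.1-fold higher in TAF-el4, a difference of 3.72 ± 0.08 (SE, n = 3 each; adjusted p = 4.22e-16 by limma). Cxcl12, the ligand of CXCR4, read -0.27, -0.32 and -0.43 on the TAF-el4 arrays, against -1.94, -2.02 and -2.14 on the TAF-tib42 arrays, 3.23-fold higher. For both genes the groups of arrays were far apart, and a further Cxcl12 probe gave 1.98.

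Among 32 cytokine and acute phase genes, 9 were called higher and 6 lower, beside 13.3% and 9.66% of all genes. The acute phase genes Saa3 and Saa1, serum amyloid proteins, were lower in TAF-el4. Saa3 read -0.43, -0.70 and -0.89 on the TAF-el4 arrays, against 2.63, 2.28 and 1.73 on the TAF-tib42 arrays, 7.41-fold lower. Saa1 was 4.49-fold lower by its brightest probe (-2.17 ± 0.18), while its further probe gave 0.04 and was not called, so the 2 probes disagree. Il6, the main inducer of the acute phase response, was 2.7-fold lower (-1.43 ± 0.10), and Nfkbia, the inhibitor that NF-κB itself induces, was 3.49-fold lower (-1.80 ± 0.08). Csf1, the macrophage growth factor, and Ptgs2, the inducible cyclooxygenase, were higher in TAF-el4, by 1.23 ± 0.06 and 1.40 ± 0.08.

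In the complement list, 4 of 20 members were called lower and 3 higher, beside 9.66% and 13.3% of all genes. C1s1 (-0.87 ± 0.14) and C1ra (-0.78 ± 0.15), proteases of the classical pathway, and Cfb (-0.82 ± 0.08), of the alternative pathway, were lower, and Cd59a, a membrane inhibitor of lysis, was higher (0.84 ± 0.05).

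The proliferins gave the largest differences of all named genes. Proliferins are secreted relatives of prolactin, known in mouse from the placenta and from growing fibroblast lines and described there as promoting vessel growth. Prl2c5 read 4.13, 4.16 and 4.22 on the TAF-el4 arrays, against -1.35, -1.38 and -1.44 on the TAF-tib42 arrays, 47-fold higher in TAF-el4, a difference of 5.55 ± 0.14 (SE, n = 3 each; adjusted p = 3.87e-15 by limma). Prl2c3 read 3.92, 3.96 and 4.21 on the TAF-el4 arrays, against -1.20, -1.0 and -1.11 on the TAF-tib42 arrays, 35.2-fold higher. Further probes above background on all 6 arrays gave 4.17 for Prl2c5 and 3.61 for Prl2c3. The Prl2c genes are near-identical copies, so these probes cannot be taken as separate genes.

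Rpl39l and Rps4l, copies of ribosomal protein genes that are otherwise known from the germ line, were also far higher in TAF-el4. Rpl39l read 1.06, 0.99 and 1.07 on the TAF-el4 arrays, against -2.95, -3.17 and -3.14 on the TAF-tib42 arrays, 17.4-fold higher by its brightest probe, while a further probe gave only 0.77. Rps4l read 3.55, 3.49 and 3.69 on the TAF-el4 arrays, against 0.11, 0.07 and 0.05 on the TAF-tib42 arrays, 11.3-fold higher. Xlr, an X-linked lymphocyte-regulated gene of a multicopy family, was on the other side, with -2.47, -2.54 and -2.38 on the TAF-el4 arrays, against 0.03, -0.18 and -0.02 on the TAF-tib42 arrays, 5.31-fold lower in TAF-el4, and a further probe gave -2.06. Mela, a melanoma antigen gene of retroviral origin, read 0.25, 0.28 and 0.25 on the TAF-el4 arrays, against 0.64, 0.69 and 0.64 on the TAF-tib42 arrays, a difference of -0.39 ± 0.08, and averaged -4.24 in TAF-tib6 and -4.45 in NSF.

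**Figure D3:**
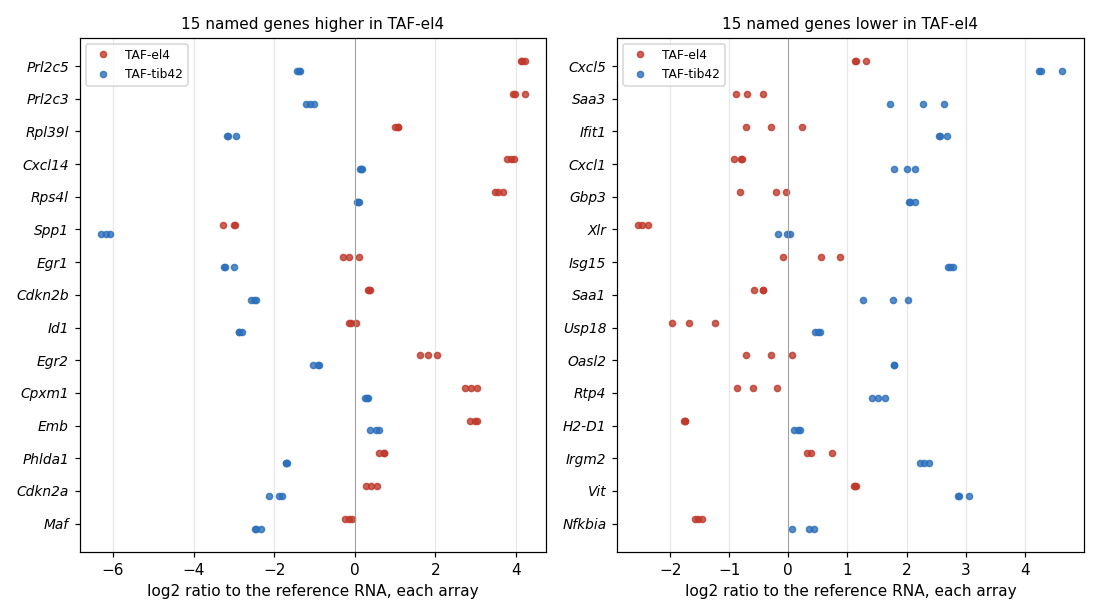
Level of each array, as log2 ratio to the reference RNA, for the 15 named genes with the largest positive (left) and negative (right) difference among called genes whose arrays do not overlap. Each row shows the TAF-el4 arrays above the TAF-tib42 arrays. The gaps run from 5.55 for Prl2c5 on the left to -3.19 for Cxcl5 on the right, and Ifit1, Gbp3, Isg15, Usp18 and Rtp4 on the right have TAF-el4 arrays more spread than the TAF-tib42 arrays.

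Cell cycle and mitosis genes were higher in TAF-el4 in 39 of 56 tested members, with 1 lower and a median difference of 0.42, beside 13.3% of all genes called higher. Their mean level was -0.61 to -0.56 on the TAF-el4 arrays, against -1.03 to -0.98 on the TAF-tib42 arrays. With the slide run as a block, where the difference rests on TAF-el4 array 3 alone, 29 were called higher. Single differences were moderate, with 3 members at least 2-fold higher.

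Rrm2 and Rrm1, the subunits of ribonucleotide reductase that supplies DNA precursors, differed by 1.32 ± 0.11 and 0.99 ± 0.10. Rrm2 read -0.12, -0.03 and 0.03 on the TAF-el4 arrays, against -1.38, -1.41 and -1.30 on the TAF-tib42 arrays. Ccnb2, a mitotic cyclin, was 2.01-fold higher, and the G1 cyclins Ccnd1 and Ccnd2, which growth factors induce, were 2.4-fold and 1.89-fold higher.

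The promoter of Ccnb2 is shown because it carries both elements common in mitotic genes, the cell cycle homology region (TTTGAA) and the CCAAT box (CCAAT), in capitals on either strand, in the same build and window as above.
Ccnb2 (chr9:70421505-70421804, minus strand): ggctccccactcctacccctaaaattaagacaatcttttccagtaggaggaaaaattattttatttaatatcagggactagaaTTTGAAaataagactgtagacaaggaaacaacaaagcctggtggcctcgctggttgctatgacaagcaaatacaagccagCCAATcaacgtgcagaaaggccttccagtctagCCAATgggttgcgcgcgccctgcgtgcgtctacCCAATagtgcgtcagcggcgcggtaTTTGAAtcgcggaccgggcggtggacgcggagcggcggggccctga
TTTGAA was found in 22 of 48 cell cycle promoters (45.8%), against 20.2% of all genes, and CCAAT in 35 of 48 (72.9%), against 41.1% of all genes. Called members held TTTGAA in 16 of 33 cases and CCAAT in 25 of 33, and members that were not called held them in 4 of 13 and 8 of 13.

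Of the 7 CDK inhibitors tested, 4 were called higher in TAF-el4 as well, beside 13.3% of all genes. Cdkn2b and Cdkn2a were higher by more than any gene of the cell cycle list. Cdkn2b, which encodes p15 and blocks the cyclin D kinases, read 0.37, 0.36 and 0.32 on the TAF-el4 arrays, against -2.44, -2.57 and -2.51 on the TAF-tib42 arrays, 7.23-fold higher, a difference of 2.85 ± 0.05 (SE, n = 3 each; adjusted p = 3.25e-16 by limma). Its neighbour Cdkn2a, which encodes p16 and p19ARF, read 0.27, 0.55 and 0.40 on the TAF-el4 arrays, against -1.89, -1.80 and -2.14 on the TAF-tib42 arrays, 5.11-fold higher. The probe's place relative to the 2 transcripts of Cdkn2a was not examined. Cdkn1a, which encodes p21, was 2.13-fold higher and Cdkn1c, which encodes p57, 1.71-fold higher. Cdkn1b (-0.09 ± 0.05), Cdkn2c (0.01 ± 0.04) and Cdkn2d (0.00 ± 0.06) were not called.

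Over the list of CDK inhibitors and p53 targets, 15 of 34 tested members were called higher and 7 lower, with a median difference of 0.09. Over all genes 13.3% were called higher and 9.66% lower. The p53 targets Ccng1, a cyclin that acts in p53 feedback, and Zmat3, an RNA-binding protein, were 2.54-fold and 2.31-fold higher in TAF-el4. Their groups of arrays did not overlap, as in 38.4% of all genes.

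Immediate-early and heat shock genes were called higher in TAF-el4 in 21 of 37 cases and lower in 4, with a median difference of 0.36. Over all genes 13.3% were called higher and 9.66% lower. Egr1, a zinc finger factor induced within minutes of growth factor stimulation, read 0.09, -0.15 and -0.29 on the TAF-el4 arrays, against -3.23, -3.25 and -2.98 on the TAF-tib42 arrays, 8.23-fold higher, a difference of 3.04 ± 0.12 (SE, n = 3 each; adjusted p = 8.30e-13 by limma). Egr2, its relative, was 6.82-fold higher (2.77 ± 0.13). Phlda1, a pleckstrin homology-like protein, read 0.74, 0.61 and 0.73 on the TAF-el4 arrays, against -1.72, -1.70 and -1.68 on the TAF-tib42 arrays, 5.26-fold higher. Dusp6, the phosphatase that ERK induces to limit its own activity, was 4.43-fold higher (2.15 ± 0.07), and the kinase gene Sgk1 2.97-fold higher (1.57 ± 0.09).

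The Id genes, which hold basic helix-loop-helix factors inactive and are induced by bone morphogenetic proteins (BMPs), did not move as one. Id1 read -0.11, 0.04 and -0.15 on the TAF-el4 arrays, against -2.88, -2.81 and -2.87 on the TAF-tib42 arrays, 6.88-fold higher in TAF-el4, a difference of 2.78 ± 0.08 (SE, n = 3 each; adjusted p = 4.01e-14 by limma), and a further probe gave 2.75. Id3 (0.96 ± 0.06) and Id2 (0.47 ± 0.08) were higher and Id4 was lower (-0.64 ± 0.08). In the whole list of BMP, activin and Id genes, 14 of 38 were called higher and 4 lower. Over all genes the shares were 13.3% and 9.66%. Fst, the activin antagonist follistatin, was 3.15-fold higher, and Gdf15, a stress-induced member of the family, 1.78-fold higher.

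TGF-β ligands, receptors and targets were called higher in TAF-el4 in 11 of 21 cases and lower in 1, with a median difference of 0.13. Over all genes the shares were 13.3% and 9.66%. Ltbp2, a microfibril protein of the latent TGF-β binding protein family, was 4.33-fold higher (2.11 ± 0.09). The target Ccn2, connective tissue growth factor, was 2.07-fold higher and Smad7, the inhibitory Smad, 2.05-fold higher. Ccn2 read 3.56, 3.85 and 3.88 on the TAF-el4 arrays, against 2.73, 2.77 and 2.65 on the TAF-tib42 arrays, with a saturated spot on 1 of the TAF-el4 arrays. The ligand Tgfb3 differed by 0.66 ± 0.06.

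Contractile genes of myofibroblasts were called higher in TAF-el4 in 16 of 29 cases and lower in none, with a median difference of 0.30. Over all genes the shares were 13.3% and 9.66%. Cnn1, calponin, which binds actin in smooth muscle, read 4.47, 4.53 and 4.66 on the TAF-el4 arrays, against 2.48, 2.36 and 2.54 on the TAF-tib42 arrays, 4.26-fold higher, a difference of 2.09 ± 0.09 (SE, n = 3 each; adjusted p = 2.14e-12 by limma). The gap was wider than the range within either source. Mylk, the myosin light chain kinase, was 3.38-fold higher, the collagen-binding integrin Itga11 2.18-fold, smooth muscle myosin Myh11 1.94-fold and Tagln, transgelin, 1.82-fold, with a saturated spot on 1 of the TAF-el4 arrays. The other Tagln probe gave a difference of 0.65.

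Matrix genes moved both ways. Among 60 matrix glycoproteins and proteoglycans, TAF-el4 had 24 called higher and 13 called lower, with a median of 0.02. Over all genes the shares were 13.3% and 9.66%. Spp1, osteopontin, read -3.27, -2.98 and -2.99 on the TAF-el4 arrays, against -6.30, -6.17 and -6.06 on the TAF-tib42 arrays, 8.55-fold higher, though below the reference RNA in both sources. Tnc, tenascin C, was 3.75-fold higher by its brightest probe and 0.59 on the log2 scale by the other, Has2, a hyaluronan synthase, was 3.31-fold higher, and Ccn1 2.81-fold higher. Vit, the matrix protein vitrin, was 3.51-fold lower.

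Of 27 collagen genes tested, 7 were called higher and 6 lower, beside 13.3% and 9.66% of all genes. Col8a1 (1.65 ± 0.07) and Col7a1 (1.19 ± 0.06) were higher, and Col18a1, whose C-terminal fragment is endostatin, was lower (-1.26 ± 0.08). Col3a1, a fibrillar collagen, was at least 1.58-fold lower in TAF-el4 by its brightest probe, a bound because the spot was saturated on all 3 TAF-tib42 arrays. The other Col3a1 probe gave a smaller difference of -0.56. For Col2a1 the probes disagreed, with -0.93 by the brightest and 0.24 by the other. The brightest probe of Col1a1 and the probe of Col1a2 were saturated on all 6 arrays, so no fold is given for them. The collagen processing list had 6 higher and 5 lower of 20, led by Adamts2, the procollagen N-proteinase (-0.67 ± 0.07), and Pcolce2, an enhancer of the C-proteinase (0.66 ± 0.06). The other Adamts2 probe gave -0.14 and was not called.

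Among 42 proteases and inhibitors, 16 were called higher and 5 lower, beside 13.3% and 9.66% of all genes. Thbd, thrombomodulin, read 2.49, 2.48 and 2.53 on the TAF-el4 arrays, against 0.81, 0.66 and 0.86 on the TAF-tib42 arrays, 3.3-fold higher in TAF-el4. Timp1, an inhibitor of metalloproteinases, was at least 2.51-fold higher by its brightest probe, with saturated spots on all 3 TAF-el4 arrays. Further Timp1 probes gave smaller differences of 1.23 and 1.13. Serpinb2 was 2.37-fold higher and Plau, urokinase, 1.77-fold higher by its brightest probe. The other Plau probe gave 0.01 and was not called. Cpxm1, a secreted carboxypeptidase-like protein, and Emb, the membrane protein embigin, were among the largest differences of all, at 2.59 ± 0.25 and 2.47 ± 0.19. Maf, a leucine zipper factor, differed by 2.26 ± 0.09 with its brightest probe, while its other probe gave 0.07 and was not called.

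Genes of vessel growth showed no common direction: of 29 tested, 8 were called higher and 8 lower, with a median of 0.01. Over all genes the shares were 13.3% and 9.66%. Among the platelet-derived growth factors (PDGFs), Pdgfc read -0.32, -0.29 and -0.19 on the TAF-el4 arrays, against 0.30, 0.24 and 0.30 on the TAF-tib42 arrays, 1.46-fold lower in TAF-el4 (-0.55 ± 0.06, adjusted p = 3.35e-06 by limma). Pdgfa (0.13 ± 0.05), Pdgfb (0.01 ± 0.07) and Pdgfd (0.07 ± 0.05) were not called. The other probe of Pdgfa gave 0.25 and was called, as was the mean of its probes (0.19). Of the receptors, Pdgfrb was lower (-0.44 ± 0.07, adjusted p = 6.12e-05 by limma). Pdgfra was called lower by a small margin (-0.25 ± 0.08, adjusted p = 0.0349 by limma), a call lost with the slide run as a block, with median-centring, and on leaving out TAF-el4 array 2 or 3 or any 1 of the TAF-tib42 arrays, among other settings. Pdgfrl, a receptor-like protein, was not called (0.19 ± 0.09), but was called higher under 6 alternatives, among them Cy5 alone (0.42), the scanner's own ratio (0.44) and a smaller background offset (0.33).

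Vegfa read 0.22, 0.24 and 0.10 on the TAF-el4 arrays, against 0.36, 0.37 and 0.35 on the TAF-tib42 arrays, a difference of -0.18 ± 0.05 (adjusted p = 0.011 by limma) that was no longer called without TAF-el4 array 3, with median-centring or with the mean of its probes. The lymphatic factors Vegfc and Vegfd were higher in TAF-el4, by 0.77 ± 0.04 and 0.67 ± 0.10. Efnb2, the ligand ephrin-B2 that marks arterial vessels, was 2.93-fold higher by its brightest probe, while its other probe gave 0.12 and was not called. Angptl4, an angiopoietin-like inhibitor of lipoprotein lipase, was 2.21-fold higher.

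Growth factor genes outside these families were called higher in 15 and lower in 3 of 43 cases. Over all genes the shares were 13.3% and 9.66%. Igfbp2, a binding protein of insulin-like growth factors, was 3.88-fold higher in TAF-el4, and Gas6, the ligand of the TAM receptors, 3.05-fold. Kitl, stem cell factor, was 2.42-fold higher by its brightest probe, while its other probe gave 0.13 and was not called. Hbegf, an EGF receptor ligand, was 1.82-fold higher and Igfbp4 1.76-fold. In the Wnt pathway 12 of 37 were called higher and 8 lower, beside the same shares of all genes. The antagonists Sfrp1 (1.08 ± 0.12) and Dkk2 (0.85 ± 0.08) and the ligands Wnt2 (1.06 ± 0.06) and Wnt4 (0.48 ± 0.08) were higher, and Rspo2, an enhancer of Wnt signalling, was lower (-1.03 ± 0.06).

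Genes of position and lineage differed in both directions. Of 37 Hox genes, 5 were called higher and 4 lower, near the shares over all genes, with Hoxa11 (0.67 ± 0.05) and Hoxc8 (0.43 ± 0.06) higher and Hoxa7 lower (-0.34 ± 0.05). Of 61 mesenchymal regulators, 16 were called higher and 11 lower, beside 13.3% and 9.66% of all genes. Prrx2 (1.56 ± 0.05), Sox9 (1.09 ± 0.07) and Pitx1 (0.83 ± 0.06) were higher. A further Sox9 probe gave 1.07, and another gave 0.01 and was not called. Meox2 was lower (-1.31 ± 0.09), though by the scanner's own ratio Meox2 gave -0.51 and was not called. Snai1 was 1.61-fold higher. In axon guidance 8 of 37 were called higher and 5 lower, beside 13.3% and 9.66% of all genes. The largest were Epha4 (0.99 ± 0.05), an ephrin receptor, and Unc5b (0.95 ± 0.08), a netrin receptor. The other Epha4 probe gave 0.19 and was not called.

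In metabolism, 13 of 33 sterol and fatty acid genes were called lower and 6 higher in TAF-el4, with a median of -0.07. Over all genes 9.66% were called lower and 13.3% higher. The fatty acid desaturases Scd2 (-0.86 ± 0.05), Scd1 (-0.58 ± 0.07), Fads1 (-0.54 ± 0.06) and Fads2 (-0.49 ± 0.04) were all lower. Of 31 hypoxia and glycolysis genes, 12 were called lower and 6 higher. Ndrg1 (-1.24 ± 0.09), Higd1a (-0.92 ± 0.05), Bnip3l (-0.68 ± 0.04) and the glycolytic enzyme Pgk1 (-0.50 ± 0.05) were lower, while Hmox1, heme oxygenase, was 2.32-fold higher. The other Higd1a probe gave -0.15 and was not called.

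**Figure D4:**
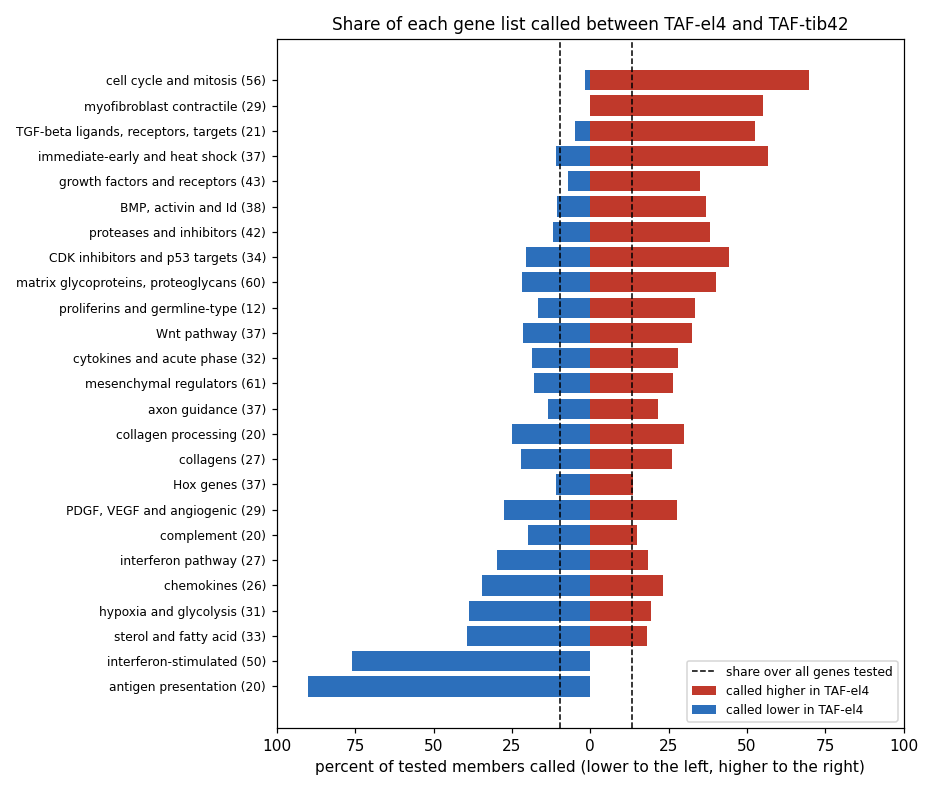
Percent of the tested members of each gene list (number tested in brackets) called higher in TAF-el4, to the right, and lower, to the left. Dashed lines give the shares over all genes, 13.3% higher and 9.66% lower. Antigen presentation (18 of 20) and interferon-stimulated genes (38 of 50) extend farthest to the left, and cell cycle genes (39 of 56) farthest to the right. The 2 lists with under 10 tested members are left out.

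Markers were checked for the identity of the cells. All 20 fibroblast markers tested were above background on all 6 arrays. So were all 31 lymphocyte and lymphoma markers, all 21 macrophage markers and 18 of 19 endothelial markers tested. Being above background therefore does not tell these cell types apart. For the fibroblast markers, TAF-el4 had 2 higher calls and 7 lower calls. Their mean level was 0.66 to 0.71 in TAF-el4, against 0.74 to 0.78 in TAF-tib42. Thy1, a surface marker of fibroblasts, was 1.64-fold higher in TAF-el4 and Fbln2, the matrix protein fibulin 2, was higher by 0.20. Col3a1, Pdgfrb, Twist2, Fn1, Ddr2, Pdgfra and Eng were the 7 called lower, Twist2 by -0.33 and Fn1 by -0.32. Fn1 and Eng lost their call by the scanner's own ratio and on leaving out some single arrays, among other settings. Twist2 lost its call with the slide run as a block and from Cy5 alone. Lymphocyte and lymphoma markers, relevant because EL4 is a T-cell lymphoma, had 2 of 31 called higher and 1 lower, beside the same shares of all genes. Their mean levels were -0.70 to -0.67 in TAF-el4 and -0.71 to -0.67 in TAF-tib42. Ptprc (CD45), which defines blood cells, averaged -4.39 in TAF-el4 and -4.26 in TAF-tib42 and was not called.

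Macrophage markers had 3 of 21 called higher and 5 lower, beside 13.3% and 9.66% of all genes. Their means were -1.06 to -0.96 in TAF-el4, against -0.99 to -0.95 in TAF-tib42. Of those called, Lyz2 (0.92 ± 0.09) and Lyz1 (0.58 ± 0.07), lysozymes, were higher and Tyrobp (-0.54 ± 0.08), Aif1 (-0.46 ± 0.06) and Cd14 (-0.36 ± 0.05) lower. The other probes of Lyz2 (0.02) and Aif1 (-0.14) were not called. Pericyte and smooth muscle markers had 3 of 12 called higher, Cnn1 and Myh11 among them, and 3 lower, Cspg4 (-0.65 ± 0.06), Notch3 (-0.53 ± 0.06) and Anpep (-0.42 ± 0.10, not called from Cy5 alone). Their mean level was 0.65 to 0.74 in TAF-el4, against 0.50 to 0.57 in TAF-tib42, and the part of such cells in the contractile genes' difference was not tested.

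Endothelial markers had 1 of 19 called, epithelial markers 1 of 16, skeletal muscle markers 2 of 12 and Schwann cell or melanocyte markers 4 of 13. Over all genes 23% were called. Adipocyte markers had 3 of 13 called higher, led by Fabp4 (1.26 ± 0.06), and 2 lower, led by Lpl (-1.68 ± 0.14). In arrays of bulk RNA, fewer cells of a type and less RNA per cell cannot be told apart.

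The other sources set these differences in a wider range. Of the 38 called interferon targets, 36 had their highest of the 5 source means in TAF-tib42 and 25 their lowest in TAF-el4, beside 1876 and 1645 of the 3015 genes called lower in all. Isg15 averaged 0.44 in TAF-el4 and 2.74 in TAF-tib42, beside 0.84 in TAF-tib48, 0.65 in TAF-tib6 and 0.74 in NSF. In antigen presentation 16 of 18 called members were highest in TAF-tib42 and 13 lowest in TAF-el4. H2-D1 averaged -1.76 in TAF-el4 and 0.15 in TAF-tib42, beside -1.44 in TAF-tib48, -1.50 in TAF-tib6 and -0.81 in NSF.

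Of the 39 cell cycle genes called higher, 37 had their highest source mean in TAF-el4 and 3 their lowest in TAF-tib42, beside 2508 and 2318 of the 4163 genes called higher in all. The exceptions to the first count were Ccnd1, highest in TAF-tib48 (0.30, against 0.21 in TAF-el4), and Ccnd2, highest in TAF-tib6 (2.12, against 1.39 in TAF-el4). Rrm2 averaged -1.29 in TAF-tib48, -1.51 in TAF-tib6 and -1.50 in NSF, all near the TAF-tib42 mean of -1.36 and below the TAF-el4 mean of -0.04. Of 16 called contractile genes, 13 were highest in TAF-el4 and 9 lowest in TAF-tib42. For the immediate-early and heat shock genes these counts were 15 and 8 of 21, and for the CDK inhibitor and p53 list 7 and 12 of 15. Among all genes at least 2-fold higher, 88 of 163 were highest in TAF-el4 and 135 lowest in TAF-tib42. Cdkn2b averaged 0.77 in TAF-tib48, 0.98 in TAF-tib6 and 0.73 in NSF, all above the TAF-el4 mean of 0.35.

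Some of the largest differences followed other lines. Prl2c5 averaged 3.85 in TAF-tib48, 1.45 in TAF-tib6 and 1.55 in NSF, so that TAF-el4 and TAF-tib48 were high and TAF-tib42 was the lowest source. Rpl39l, with -2.86 in TAF-tib48, 1.82 in TAF-tib6 and 0.83 in NSF, was low in TAF-tib42 and TAF-tib48, and Cxcl14 was likewise low in both (0.42 in TAF-tib48, 3.03 in TAF-tib6 and 3.17 in NSF). Xlr was the reverse, high in TAF-tib42 and TAF-tib48 (-0.08 in TAF-tib48, -2.73 in TAF-tib6 and -3.13 in NSF). Cxcl5 and Saa3 were low in TAF-el4 and TAF-tib48 and high elsewhere, with Cxcl5 at 0.64 in TAF-tib48, 3.92 in TAF-tib6 and 4.10 in NSF.

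Over the 163 called genes at least 2-fold higher in TAF-el4, the means of the other 3 sources all lay nearer TAF-el4 for 43 genes and all nearer TAF-tib42 for 18. For the 113 lower genes these counts were 45 and 5. TAF-tib48, which shares the label resistant, lay nearer TAF-el4 for 58 of the 163 higher genes and 82 of the 113 lower ones. TAF-tib6 did so for 118 and 79 genes, and NSF for 127 and 68. These are descriptions of means over 3 arrays, and no test of one source against another beyond TAF-el4 and TAF-tib42 was made.

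**Figure D5:**
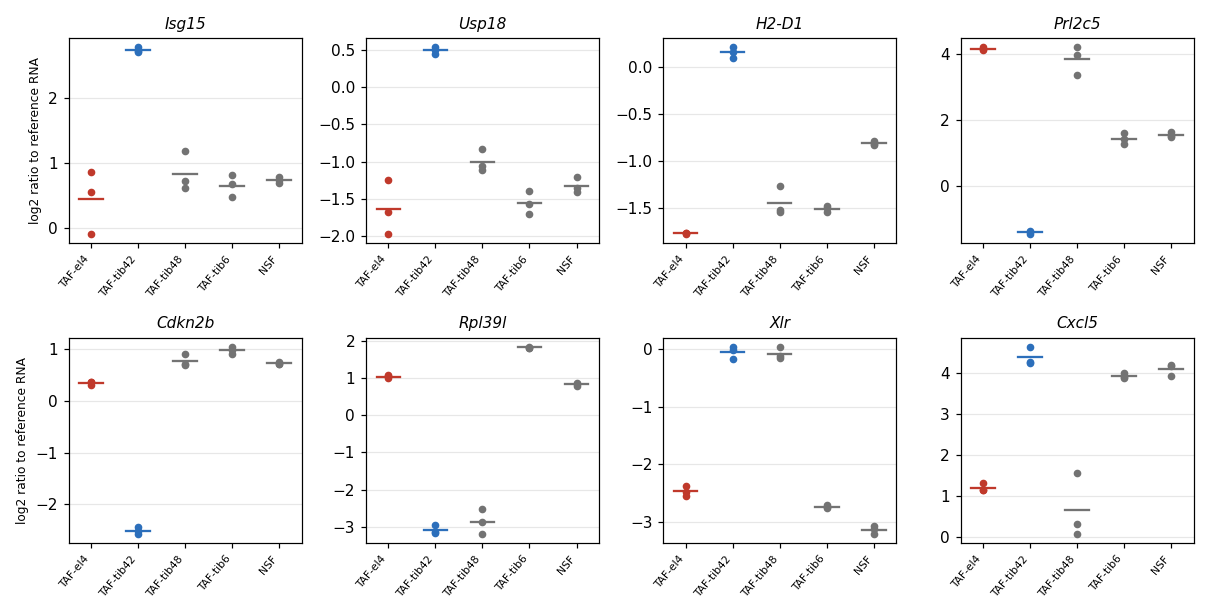
Level of each array (points) and mean (line) in all 5 sources for 8 genes, as log2 ratio to the reference RNA. TAF-tib42 stands apart from the other 4 sources for Isg15, Usp18, H2-D1 and Cdkn2b, TAF-el4 is close to TAF-tib48 for Prl2c5 and Cxcl5, and TAF-tib42 is close to TAF-tib48 for Rpl39l and Xlr.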

How the data were processed

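Two-colour Agilent 44k mouse arrays were hybridised with amplified fibroblast RNA in Cy5 and a universal mouse reference RNA in Cy3, per the labels, with no dye swap. The deposited scanner files hold Cy5 and Cy3 intensity per spot, well-above-background, saturation and outlier flags, and the scanner's log10 ratio, per the file headers. They were made with Agilent Feature Extraction 8.5.1.1, per the submitters' processing notes. The deposited value table matched the scanner's ratio on the log2 scale, with the direction Cy5 over Cy3, no centring and column medians of 0.03 to 0.05.

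Intensities were background-corrected (normexp, offset 50), loess-normalised within arrays and averaged per probe in limma 3.58.1 (R 4.3.3), leaving out control and outlier spots. The offset shrinks folds of dim genes. A gene is its brightest probe, kept if well above background on all 3 arrays of at least 1 source: 31208 of 33498 names. Names came from RefSeq accessions for 22214 of 41174 probes, from descriptions or gene names for others, and 17784 kept the file's name. All 15 arrays entered one limma fit with a mean per source, and p-values were Benjamini-Hochberg adjusted over all genes, called under 0.05. The number of arrays limits precision. The fit was tested on simulated data for this comparison (30585 genes, 50 changed per fold size). It called 68% of 1.2-fold and 100% of 1.5-fold, 2-fold and 3-fold changes, with 11 false calls. The simulated noise was normal and independent between arrays, with no slide run effect and far fewer changed genes than were called here. The false calls of the real comparison cannot be read from it.

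Named genes are the 15 highest and 15 lowest differences among called genes with non-overlapping arrays, passing over clone, RIKEN, predicted and accession names, up to 5 called members with the largest change in each gene list, and fixed families. Some of these genes are not reported here. The members and lists were chosen with earlier results of these data known. Alternatives changed the normalisation, background, filter, probe rule, samples and blocks. Figures used matplotlib 3.10.9.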

Additional observations from a re-analysis of the deposited data

How the results depend on the processing

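With the slide run as a block, 4424 genes were called in place of 7178, 1644 of them lower in place of 3015. Within the shared slide run, an alternative chosen after seeing the data with 1 TAF-el4 array, 4160 were called, 2643 higher and 1517 lower. Both fits estimate the difference from fewer arrays, with TAF-el4 array 3 alone on the TAF-el4 side, so they are 1 check and not 2. Centring on the median without loess gave 1880 lower genes, and the cause was not tested. The scanner's own ratio put 510 genes at least 2-fold apart, and 508 genes were so in the authors' deposited table, in place of 276; neither adds an offset. Leaving out each array in turn gave 5842 to 6437 calls. The 276 genes at least 2-fold apart were all called in the same direction in 16 of 20 alternatives, and 275 of them by Cy5 alone, the scanner's ratio and the authors' table. With the filter requiring both sources above background, 273 remained, since the others were not tested there.

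Over the 20 alternatives, interferon-stimulated members called lower numbered 33 to 41, and antigen presentation members 15 to 19. Members called higher numbered 29 to 44 for the cell cycle, 19 to 22 for immediate-early and heat shock, 13 to 18 for contractile, 15 to 16 for CDK inhibitors and p53 targets and 9 to 12 for TGF-β. Of 168 called named genes, 155 to 168 kept their call under each alternative. The melanocyte marker Tyr, 0.16 in the arrays' ratios, was -0.013 from Cy5 alone and not called.

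Replicate numbers are shared by the groups but do not pair the arrays: deviations of same-numbered arrays correlated at -0.13, 0.01 and -0.07. A fit with the replicate block called 6962 genes. Saturation limits the brightest genes, and dim probes limit folds.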
